A study of Mus musculus with 9 samples.

Results

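The de novo purine synthesis enzymes were followed in RNA-seq libraries of wild-type mouse CD8+ T cells. They are the 10 genes Ppat, Gart, Pfas, Paics, Adsl, Atic, Adss, Impdh1, Impdh2 and Gmps, chosen by name, and all 10 were found among the 20618 genes of the tables. CD8+ T cells are the cytotoxic lymphocytes that kill infected and tumour cells. The sampled cells were cultured for 24 h with 2 mM inosine plus hypoxanthine, with 2 mM inosine alone, or with 2 mM glucose. All 3 media contained 10% dialyzed fetal bovine serum, which is depleted of small metabolites, and live cells, stated as about 80%, were sorted before RNA extraction. The amount of hypoxanthine is left out because its unit is incomplete in the labels. Each medium had 3 libraries, 9 in all, and the labels place them in 1 batch. Those with inosine plus hypoxanthine are called the hypoxanthine libraries. Whether the libraries of a medium stem from different mice or cultures is not stated, and the p-values therefore cover only the variation among these samples, part of which may be technical. The strain and age of the mice, and whether the cells had been activated, are not given in the sources used here.

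Cells build purines in a chain of reactions on a ribose phosphate, starting from phosphoribosyl pyrophosphate (PRPP). The chain uses glutamine, glycine, aspartate and formyl groups carried by folate, and ends in inosine monophosphate (IMP), from which separate branches lead to AMP and GMP. The alternative is salvage, in which free bases such as hypoxanthine are joined to PRPP by Hprt in a single reaction. Inosine is the nucleoside of hypoxanthine, which Pnp, a phosphorylase, releases from it together with a ribose phosphate. Dividing T cells are known to use both routes.

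Sequencing depth, as whole reads recovered from the deposited values, ran from 30806572 to 50022809 per library, and each member held between 2978 and 18183 reads in every library. The 13 genes encoded by mitochondrial DNA took 6.50% of FPKM (fragments per kilobase of gene, relative to library size) in inosine replicate 2 and 5.84% in inosine plus hypoxanthine replicate 2. Their share lay between 4.03% and 4.82% in the other 7 libraries. Of the 7 CD8+ T cell markers, 6 were measured. They summed to 1088 to 1174 FPKM with inosine plus hypoxanthine, against 569 to 771 FPKM with inosine and 633 to 681 FPKM with glucose. All 6 were above 1 FPKM. For 5 of them every hypoxanthine library was above all others. Cd247 went the other way, at 32.4 ± 1.23 FPKM with inosine plus hypoxanthine, 42.2 ± 14.5 FPKM with inosine and 43.3 ± 1.74 FPKM with glucose (SD, n = 3 each). The summed markers of B cells did not exceed 1.84 FPKM in any library, those of NK cells 2.95, those of myeloid cells 4.27, those of erythroid cells 0.171 and those of CD4 T cells 6.49. In these lists of 3 to 6 measured genes, the members averaging at least 1 FPKM were Zbtb7b, Cd79b, Cd68 and Klre1. In bulk libraries, fewer cells of a type and less RNA per cell cannot be told apart.

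Promoter windows of 250 bases before to 50 bases after the start site, from RefSeq on GRCm38.p6, were matched for 9 of the 10 members. Impdh1 has a pair of start sites, which makes 10 windows. They are rich in CpG: 14 to 36 CpG per window and 53.7% to 77.7% G and C, against a median of 7 CpG and 52.7% over all 32851 windows. The windows of Ppat and Paics are printed because they lie head to head on chromosome 5 with start sites 276 bases apart, and those of Paics, Atic and Impdh2 because they hold CACGTG, the letters bound by Myc with Max and by related factors. Capitals mark CACGTG, and each sequence is written on the strand of its gene. The coordinates are chr5:76951529-76951828 (minus strand) for Ppat, chr5:76951052-76951351 (plus strand) for Paics, chr1:71556906-71557205 (plus strand) for Atic and chr9:108560186-108560485 (plus strand) for Impdh2.
Ppat: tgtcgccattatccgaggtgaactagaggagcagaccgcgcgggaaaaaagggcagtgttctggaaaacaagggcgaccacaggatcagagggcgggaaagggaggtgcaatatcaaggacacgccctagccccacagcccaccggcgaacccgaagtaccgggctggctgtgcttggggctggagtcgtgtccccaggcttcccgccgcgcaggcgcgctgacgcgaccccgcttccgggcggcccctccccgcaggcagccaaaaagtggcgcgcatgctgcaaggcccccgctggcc
Paics: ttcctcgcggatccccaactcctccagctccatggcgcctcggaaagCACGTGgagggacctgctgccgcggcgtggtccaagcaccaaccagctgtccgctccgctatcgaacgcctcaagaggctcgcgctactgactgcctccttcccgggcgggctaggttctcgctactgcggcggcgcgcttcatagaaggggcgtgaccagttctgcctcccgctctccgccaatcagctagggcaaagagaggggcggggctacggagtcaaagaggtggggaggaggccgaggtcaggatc
Atic: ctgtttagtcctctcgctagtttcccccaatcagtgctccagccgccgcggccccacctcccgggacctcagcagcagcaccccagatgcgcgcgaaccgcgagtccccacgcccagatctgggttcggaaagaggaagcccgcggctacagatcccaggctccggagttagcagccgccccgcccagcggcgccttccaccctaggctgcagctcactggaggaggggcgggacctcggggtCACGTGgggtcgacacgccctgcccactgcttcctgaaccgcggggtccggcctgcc
Impdh2: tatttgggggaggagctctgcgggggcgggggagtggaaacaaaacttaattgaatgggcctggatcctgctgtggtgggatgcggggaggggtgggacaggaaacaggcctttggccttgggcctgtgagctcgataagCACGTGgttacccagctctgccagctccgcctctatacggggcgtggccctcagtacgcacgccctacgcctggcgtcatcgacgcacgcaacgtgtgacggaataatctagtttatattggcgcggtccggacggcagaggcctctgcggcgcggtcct
CACGTG, which reads the same on both strands, began at position -203 from the start site in Paics, at -7 in Atic and at -110 in Impdh2. It was present for 3 of the 9 members, and 7.15% of all windows held it. CACGTG contains a CpG, and that share is over windows not matched to the members' in CpG content. CACGCG, a variant of the same letters, was in none of the members' windows and in 9.27% of all windows, both strands searched. TGATGNAA, the letters bound by Atf4 with a partner, was in none of them and in 3.97% of all windows. A match is a description of letters only.

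In every medium Impdh2, the main IMP dehydrogenase of dividing cells, had the highest level of the 10 genes, followed by Paics, Atic and Gart. Pfas was the lowest. Impdh2 averaged 168 ± 19.2 FPKM with inosine plus hypoxanthine, 143 ± 22.9 FPKM with inosine and 166 ± 8.76 FPKM with glucose (SD, n = 3 each). Pfas averaged 16.3 ± 1.23, 17.4 ± 0.293 and 18.0 ± 2.18 FPKM in the same media (SD, n = 3 each). The middle of the order differed between media. Impdh1 had rank 7 of 10 with inosine plus hypoxanthine, rank 6 with inosine and rank 5 with glucose. With inosine plus hypoxanthine the libraries overlapped between the neighbours Atic and Gart, Adsl and Impdh1, Impdh1 and Ppat, and Ppat and Gmps. With inosine they overlapped between Paics and Atic, Adss and Impdh1, Impdh1 and Adsl, and Ppat and Gmps. With glucose they overlapped between Paics and Atic and between Ppat and Gmps. The 10 genes together held 0.124 ± 0.00929% of all FPKM with inosine plus hypoxanthine, 0.133 ± 0.00927% with inosine and 0.137 ± 0.00384% with glucose (SD, n = 3 each).

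**Figure D1:**
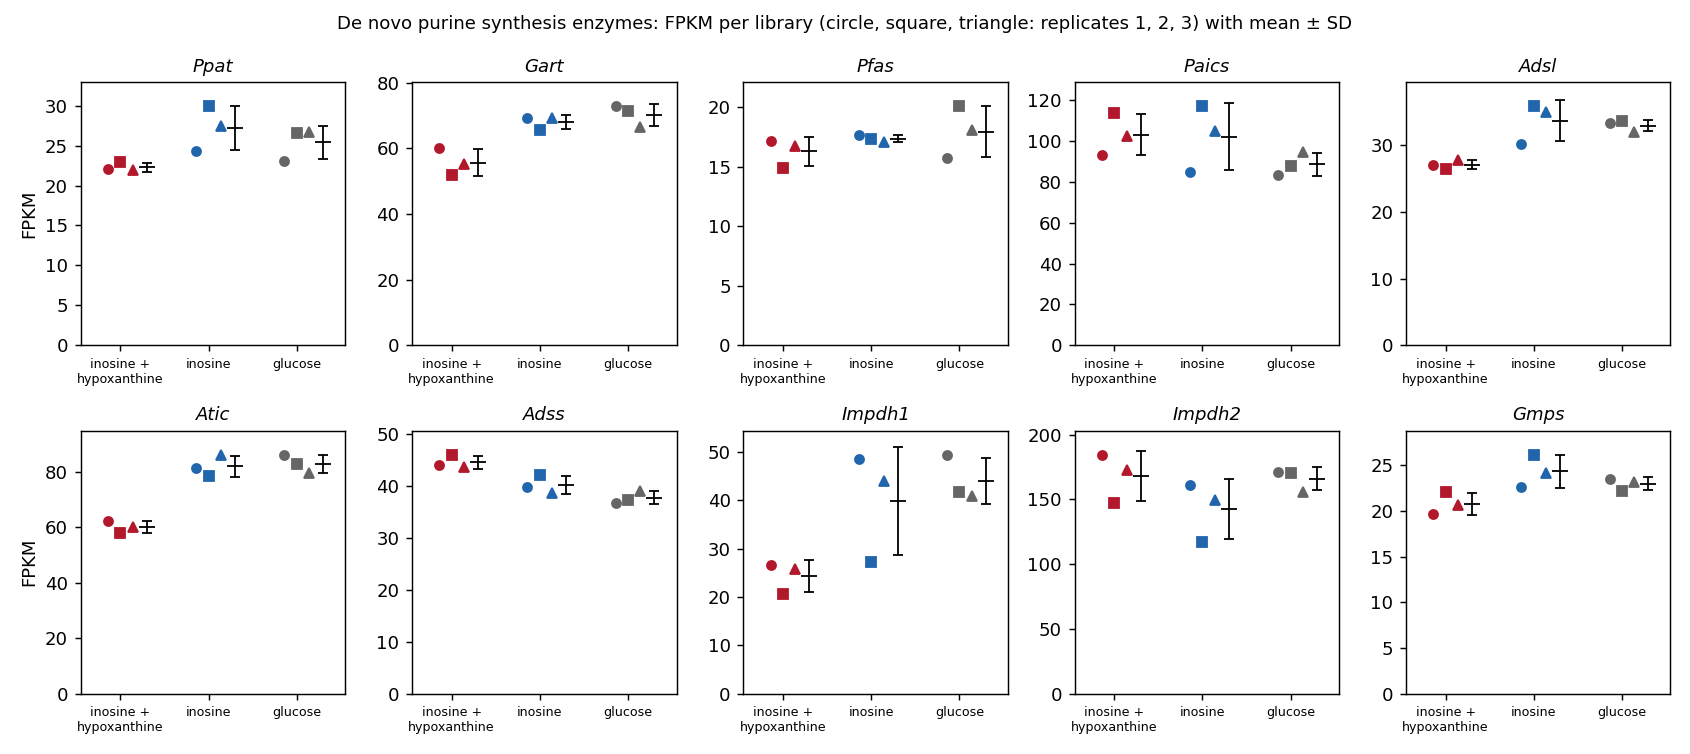
FPKM of the 10 enzymes (y axes, each from 0) in every library of the 3 media (x axes), with replicates 1, 2 and 3 as circle, square and triangle and the mean ± SD beside them. Atic lies between 57.7 and 62.3 FPKM with inosine plus hypoxanthine and between 78.5 and 86.1 FPKM with inosine, while the Paics libraries of the same media overlap.

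The comparison of inosine plus hypoxanthine with inosine asks how the cells' transcripts differ when the free base is supplied beside its nucleoside. With hypoxanthine, 4 of the 10 enzymes fell relative to inosine, where 9.59% of all genes were called lower. They were Gart, Adsl and Atic of the common chain and Impdh1 of the GMP branch. None of the 10 rose, where 11.7% of all genes were called higher, and Adss alone had an unadjusted p under 0.05 in that direction. In other analyses of the 19 tried, Adss (limma adjusted p = 0.0355) and Impdh2 (limma adjusted p = 0.0431) were each called higher once. A call is a limma adjusted p under 0.05 (Benjamini-Hochberg over all genes) on log2(FPKM + 1). All 10 members average well above 1 FPKM. When only the 9947 genes averaging 1 FPKM or more were tested, 6 members were called lower, Ppat and Gmps in addition, where 18.7% of those genes were. The median log2 difference of the 10 was -0.25, against 0.0016 over all genes.

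Relative to glucose, inosine plus hypoxanthine gave lower levels of the same 4 enzymes, where 9.55% of all genes were called lower and 19.7% of those averaging 1 FPKM or more. Adss rose, 1 of 10, where 10.8% of all genes were called higher, so that count is at the background. The median log2 difference of the 10 was -0.16, against 0.0012 over all genes. The comparisons with inosine and with glucose share the hypoxanthine libraries and are not independent of each other. Counted by libraries alone, 6 members lay wholly below inosine (Ppat, Gart, Adsl, Atic, Impdh1 and Gmps; 15.6% of all genes did) and Adss wholly above it (18.7% did). The same 6 lay wholly below glucose (17.8% of all genes) and Adss wholly above it (19.8%). These shares include genes with few or no reads and were not counted among genes averaging 1 FPKM or more.

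The first enzyme of the chain, Ppat, commits PRPP to purine synthesis and is inhibited by purine nucleotides. Its gene (chr5:76913249-76951578, minus strand, GRCm38) had 22.0, 22.9 and 21.9 FPKM with inosine plus hypoxanthine, against 24.3, 29.9 and 27.4 FPKM with inosine and 23.1, 26.5 and 26.7 FPKM with glucose. With hypoxanthine all 3 libraries were below all others, within a narrow range. Ppat had a log2 difference of -0.27 ± 0.09 from inosine and -0.18 ± 0.09 from glucose (standard error). Neither passed in the fit of all genes (limma adjusted p = 0.0586 and 0.195).

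Gart joins 3 activities of the chain in a single protein, among them a step that takes a formyl group from folate. Its gene (chr16:91621186-91646952, minus strand) had 60.0, 52.0 and 55.2 FPKM with inosine plus hypoxanthine, against 69.4, 65.7 and 69.4 FPKM with inosine and 72.9, 71.4 and 66.5 FPKM with glucose. Every hypoxanthine library was below every other. Gart had a log2 difference of -0.29 ± 0.07 from inosine and -0.33 ± 0.07 from glucose (standard error; limma adjusted p = 0.0214 and 0.0122). An antisense transcript, Gm15964, overlaps 1014 exon bases of Gart. The strand of counting is not given in the sources used here, so reads of the pair cannot be told apart.

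Pfas and Paics, which also belong to the chain, did not pass in any comparison. Pfas (chr11:68985697-69008460, minus strand), a glutamine-using enzyme, had 17.2, 14.9 and 16.8 FPKM with inosine plus hypoxanthine, against 17.7, 17.3 and 17.1 FPKM with inosine and 15.8, 20.1 and 18.1 FPKM with glucose. The media overlapped for glucose and, through replicate 1, for inosine. Its log2 difference from inosine was -0.09, with a 95% interval from -0.30 to 0.12 (limma adjusted p = 0.557). Its difference from glucose was -0.13, with an interval from -0.34 to 0.08 (limma adjusted p = 0.391).

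Paics (chr5:76951307-76967509, plus strand), a carboxylase and synthetase in a single protein, had 93.2, 113 and 103 FPKM with inosine plus hypoxanthine, against 84.7, 117 and 105 FPKM with inosine and 83.4, 87.7 and 94.5 FPKM with glucose. The inosine libraries spread the most, and the media overlapped. Paics had a log2 difference of 0.02 from inosine, with a 95% interval from -0.26 to 0.30 (limma adjusted p = 0.95). It turned to -0.01 when libraries were scaled by the median of ratios. The difference from glucose was 0.21, with an interval from -0.06 to 0.49 (limma adjusted p = 0.278). The first exons of Ppat and Paics share 272 bases on opposite strands, and reads there cannot be told apart.

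Adsl acts in the chain and again in the AMP branch, each time releasing fumarate. Its gene (chr15:80948490-80970946, plus strand) had 27.1, 26.4 and 27.8 FPKM with inosine plus hypoxanthine, against 30.2, 35.8 and 35.0 FPKM with inosine and 33.3, 33.6 and 31.9 FPKM with glucose. All 3 hypoxanthine libraries were lower than the rest. Adsl had a log2 difference of -0.30 ± 0.07 from inosine and -0.27 ± 0.07 from glucose (standard error; limma adjusted p = 0.0197 and 0.0303).

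Atic closes the chain, adding the last formyl group and shutting the ring to give IMP. Its gene (chr1:71557150-71579631, plus strand) had 62.3, 57.7 and 60.2 FPKM with inosine plus hypoxanthine, against 81.2, 78.5 and 86.1 FPKM with inosine and 85.9, 82.7 and 79.6 FPKM with glucose. The hypoxanthine libraries were separated from all others by a wide gap. Its mean fell by 26.7% relative to inosine and fell by 27.4% relative to glucose. On the log2 scale the difference was -0.44 ± 0.06 from inosine and -0.46 ± 0.06 from glucose (standard error; limma adjusted p = 0.00177 and 0.0016). Both calls held in each of 19 alternative analyses, which included leaving out every library in turn, with adjusted p from 0.00066 to 0.0167 against inosine and from 0.00057 to 0.0354 against glucose.

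**Figure D2:**
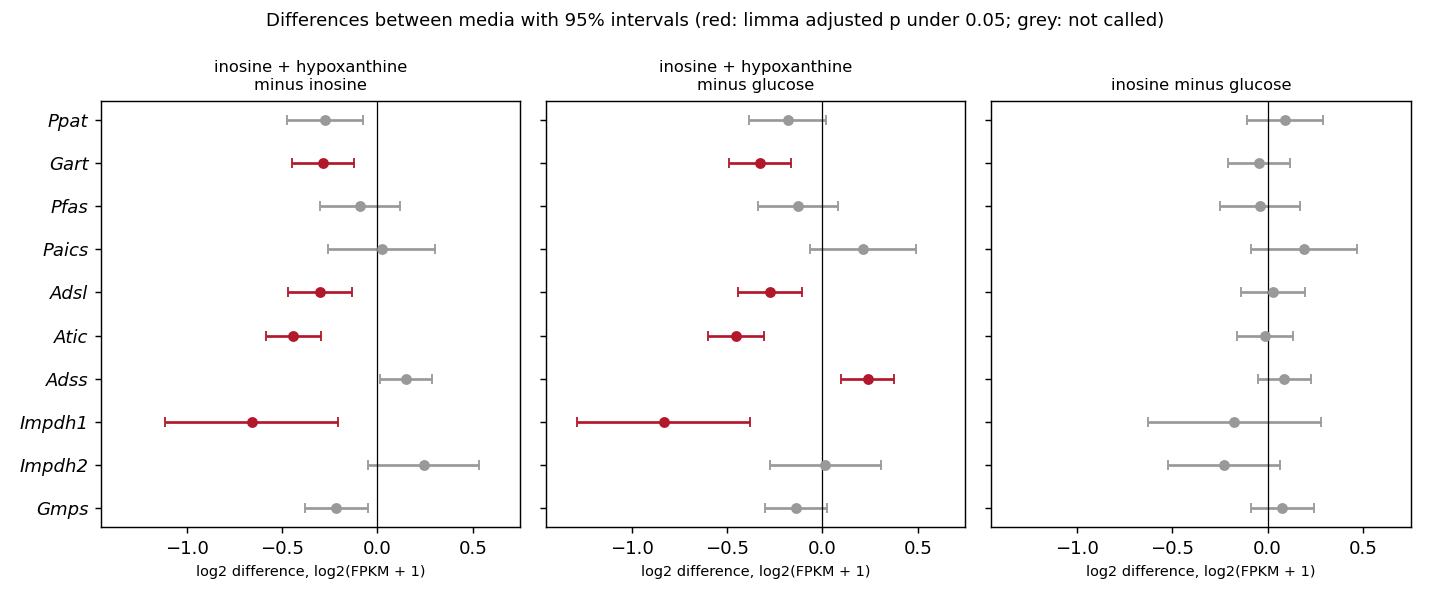
Log2 differences on log2(FPKM + 1) (x axes) of the 10 enzymes in pathway order (y axis) for the 3 comparisons, with 95% intervals, red where limma's adjusted p was under 0.05. Atic, at -0.44 and -0.46, and Impdh1, at -0.66 and -0.83, lie farthest to the left with hypoxanthine, Adss lies to the right at 0.15 and 0.24, and no enzyme is called between inosine and glucose.

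At the IMP branch point, Adss of the AMP side rose and Impdh1 of the GMP side fell relative to glucose. Impdh2, the more abundant gene for the same step as Impdh1, and Gmps did not pass in that comparison. Adss, which joins aspartate to IMP on the way to AMP, had 44.1, 46.1 and 43.7 FPKM (chr1:177762962-177796511, minus strand) with inosine plus hypoxanthine. It had 39.8, 42.1 and 38.6 FPKM with inosine and 36.8, 37.3 and 39.1 FPKM with glucose. All 3 hypoxanthine libraries were above all others. Adss had a log2 difference of 0.24 ± 0.06 from glucose, which passed, and 0.15 ± 0.06 from inosine, which did not (standard error; limma adjusted p = 0.0243 and 0.123).

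IMP dehydrogenase, the controlling step of GMP synthesis, is encoded by Impdh1 and Impdh2. Impdh1 (chr6:29200434-29216364, minus strand) had 26.5, 20.6 and 25.9 FPKM with inosine plus hypoxanthine, against 48.5, 27.2 and 43.9 FPKM with inosine and 49.4, 41.7 and 40.9 FPKM with glucose. The hypoxanthine libraries did not overlap with the others, although inosine replicate 2 came within 1 FPKM of the highest of them. Impdh1 had a log2 difference of -0.66 ± 0.20 from inosine and -0.83 ± 0.20 from glucose (standard error; limma adjusted p = 0.0465 and 0.019). Replicate 2 was the lowest Impdh1 library both with inosine plus hypoxanthine and with inosine, and these were also the 2 libraries with the highest mitochondrial share. Without both, the difference was -0.79 from inosine and -0.72 from glucose (limma adjusted p = 0.00611 and 0.00506).

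Impdh2 (chr9:108560286-108565584, plus strand) had 185, 147 and 173 FPKM with inosine plus hypoxanthine, against 161, 117 and 150 FPKM with inosine and 171, 171 and 156 FPKM with glucose. The media overlapped, and replicate 2 was again the lowest with inosine plus hypoxanthine and with inosine. Impdh2 had a log2 difference of 0.24 from inosine, with a 95% interval from -0.05 to 0.53 (limma adjusted p = 0.238). From glucose it was 0.01, with an interval from -0.28 to 0.31 (limma adjusted p = 0.985), and its sign turned to -0.02 with values scaled to an equal sum and to -0.005 under median-of-ratios scaling. Impdh2 shares 48 exon bases with Ndufaf3 on the other strand. It also has 1 transcript elsewhere that matches it at 95% identity or more over at least 300 bases, which is not among the genes analysed here.

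Gmps, the glutamine-using enzyme that completes GMP, had 19.7, 22.1 and 20.7 FPKM (chr3:63976106-64022579, plus strand) with inosine plus hypoxanthine. It had 22.7, 26.2 and 24.2 FPKM with inosine and 23.5, 22.2 and 23.2 FPKM with glucose. In FPKM, though not in recovered reads, values with hypoxanthine were the lowest, within 1 FPKM of the nearest glucose and inosine libraries. Gmps had a log2 difference of -0.22 ± 0.07 from inosine and -0.14 ± 0.07 from glucose (standard error). Neither passed (limma adjusted p = 0.0672 and 0.23).

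Apart from Atic in both comparisons and Gart against glucose, each call was lost without some single library. Against inosine, leaving out inosine replicate 3, hypoxanthine replicate 2 or hypoxanthine replicate 3 gave 1 called member, and leaving out hypoxanthine replicate 1 gave 2. Gart then had an adjusted p of 0.0726, 0.0623, 0.0768 and 0.0213, and Adsl 0.0735, 0.0582, 0.0534 and 0.0601 (limma). Gart was also lost without inosine replicate 1 (limma adjusted p = 0.0505). Impdh1 held against inosine without inosine replicate 2 (limma adjusted p = 0.00279) and was lost without any other single library, the glucose libraries included, with adjusted p from 0.0599 to 0.151. Against glucose, 2 members were called without glucose replicate 1, hypoxanthine replicate 2 or hypoxanthine replicate 3, and 3 without glucose replicate 2 or hypoxanthine replicate 1. Gart and Atic held in each of these, while Adss had adjusted p from 0.0612 to 0.0693 and Adsl from 0.0724 to 0.0854 (limma). Without glucose replicate 3, Adsl was lost (limma adjusted p = 0.0637). Impdh1 was lost without glucose replicate 1, hypoxanthine replicate 2 and hypoxanthine replicate 3 (limma adjusted p = 0.0687, 0.0698 and 0.0508). The direction of these 5 genes was the same in all 19 alternatives of both comparisons. The CD8+ T cell marker sum, given above, was also higher in the hypoxanthine libraries than in all others, though Cd247 was not, and its part in these differences was not tested.

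Between inosine and glucose none of the 10 enzymes passed, and each had a limma adjusted p of 1. None had an unadjusted p under 0.05. Over all genes limma called 2, which is 0.0097%, 584 had an unadjusted p under 0.05, and limma voom on recovered reads called 0. The largest differences among the members were -0.23 for Impdh2, with a 95% interval from -0.52 to 0.06, and 0.19 for Paics, from -0.09 to 0.47. Impdh1 differed by -0.17, from -0.63 to 0.28. For the other 7 the difference lay between -0.04 and 0.09, and their intervals lay within -0.25 to 0.29. For all 10 the libraries of the 2 media overlapped, where 2.23% of all genes lay wholly higher with inosine and 2.83% wholly lower. The median difference of the 10 was 0.007, against -0.0006 over all genes.

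Summed over the 6 enzymes of the chain to IMP, expression was 282, 287 and 284 FPKM with inosine plus hypoxanthine, against 308, 344 and 340 FPKM with inosine and 314, 322 and 317 FPKM with glucose. The 3 sums with hypoxanthine were the lowest and lay close together, although Paics, the most abundant of the 6, did not pass. The GMP branch sum of Impdh1, Impdh2 and Gmps overlapped between media, at 213 ± 21.2 FPKM with inosine plus hypoxanthine, 207 ± 32.3 FPKM with inosine and 233 ± 12.2 FPKM with glucose (SD, n = 3 each). Impdh2, its largest part, passed in none of the 3 comparisons as fitted to all libraries.

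The balance of the IMP dehydrogenase genes differed with hypoxanthine. The ratio of Impdh2 to Impdh1 FPKM was 6.96, 7.15 and 6.68 with inosine plus hypoxanthine, against 3.33, 4.30 and 3.41 with inosine and 3.46, 4.10 and 3.81 with glucose. Every hypoxanthine library was well above every other, and replicate 2 had the highest ratio in each medium. The ratio of Ppat to Paics, the head-to-head pair whose promoters are printed above, was 0.236, 0.202 and 0.213 with inosine plus hypoxanthine, against 0.287, 0.256 and 0.262 with inosine and 0.277, 0.303 and 0.283 with glucose. Again the hypoxanthine libraries stood apart, here as the lowest, with a smaller gap. The ratio of Adss to Impdh2 overlapped, at 0.268 ± 0.0393, 0.288 ± 0.062 and 0.228 ± 0.0201 with inosine plus hypoxanthine, inosine and glucose (SD, n = 3 each). These ratios and sums are descriptions and were given no test.

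**Figure D3:**
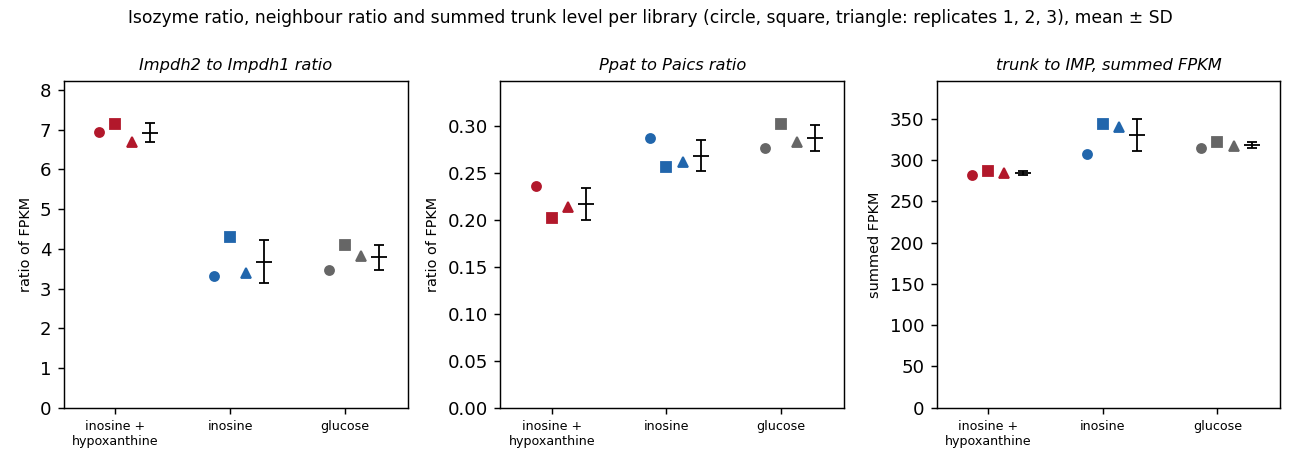
Ratio of Impdh2 to Impdh1 FPKM, ratio of Ppat to Paics FPKM and summed FPKM of the 6 chain enzymes (y axes, from 0) in every library of the 3 media (x axes), with replicates 1, 2 and 3 as circle, square and triangle and mean ± SD. The isozyme ratio is 6.68 to 7.15 with inosine plus hypoxanthine and 3.33 to 4.30 in the 6 other libraries.

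The genes that feed the pathway were followed in lists around it. Of 10 genes that make or use folate-bound formyl groups, 5 fell with hypoxanthine relative to inosine and 7 relative to glucose, and none rose, where 9.59% and 9.55% of all genes were called lower. Of its 7 genes averaging 1 FPKM or more, 6 were called lower in each comparison when those genes alone were tested, where 18.7% and 19.7% were. The median log2 difference of the list was -0.40 from inosine and -0.45 from glucose. Shmt1, the cytosolic enzyme that moves the serine carbon to folate, had 32.8, 31.8 and 32.5 FPKM with inosine plus hypoxanthine, against 45.4, 47.4 and 47.6 FPKM with inosine and 45.3, 47.5 and 44.1 FPKM with glucose. In the hypoxanthine libraries Shmt1 was far below the rest, and its inosine and glucose libraries overlapped. Shmt1 differed by -0.52 ± 0.06 from inosine and by -0.48 ± 0.06 from glucose on the log2 scale (standard error; limma adjusted p = 0.00046 and 0.00067). Mthfd1, the cytosolic enzyme that makes the formyl donor of Gart and Atic, differed by -0.41 and -0.45 (limma adjusted p = 0.00915 and 0.00598). The mitochondrial Mthfd1l differed by -0.62 and -0.57, and Mthfd2 by -0.48 and -0.50 (limma adjusted p = 0.00215, 0.00337, 0.0285 and 0.0235). Fpgs, which adds the glutamate tail that keeps folate in the cell, differed by -0.39 and -0.45 (limma adjusted p = 0.0207 and 0.011). Shmt2, the mitochondrial counterpart of Shmt1, passed against glucose at -0.77 (limma adjusted p = 0.023) and not against inosine at -0.58 (limma adjusted p = 0.0644). Aldh1l2 also passed against glucose, by -0.10 (limma adjusted p = 0.0266), at 17, 25 and 13 reads with inosine plus hypoxanthine against 46, 30 and 77 reads with glucose. These are low counts, and the gene averages under 1 FPKM.

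Of 5 genes of PRPP supply, 1 was called lower in each comparison and none higher, where 9.59% and 9.55% of all genes were called lower. When only genes averaging 1 FPKM or more were tested, 1 of the 5 was again called lower in each comparison. Of those genes 18.7% and 19.7% were, so that count is at the background. Prps1, a PRPP synthetase, had 34.4, 41.0 and 36.1 FPKM with inosine plus hypoxanthine, against 44.2, 55.9 and 49.7 FPKM with inosine and 48.8, 47.0 and 47.5 FPKM with glucose. Its hypoxanthine libraries were below all others, and the log2 difference was -0.41 and -0.36 (limma adjusted p = 0.0163 and 0.0306). The other 4 genes of the list, Prps2, Prps1l3, Prpsap1 and Prpsap2, did not pass in either comparison.

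Among 16 genes of salvage and interconversion, 4 fell and 2 rose with hypoxanthine relative to inosine, and 3 fell and 2 rose relative to glucose. The share that rose was near the background of 11.7% and 10.8% of all genes. Of its 12 genes averaging 1 FPKM or more, 4 were called lower in each comparison when those genes alone were tested, where 18.7% and 19.7% were. Hprt, which turns hypoxanthine into IMP, did not pass. It had 109, 129 and 110 FPKM with inosine plus hypoxanthine, against 134, 152 and 128 FPKM with inosine and 132, 123 and 136 FPKM with glucose, and the media overlapped (log2 difference -0.25 and -0.17, limma adjusted p = 0.1 and 0.261). Aprt, the salvage enzyme for adenine, had 109, 120 and 108 FPKM with inosine plus hypoxanthine, against 170, 205 and 178 FPKM with inosine and 185, 166 and 167 FPKM with glucose. Its hypoxanthine libraries were far below the rest, and it differed by -0.70 and -0.61 (limma adjusted p = 0.00099 and 0.00201). Itpa, which removes inosine triphosphate, differed by -0.70 and -0.62 (limma adjusted p = 0.00075 and 0.00134). Pnp, which splits inosine, had 18.3, 20.4 and 18.0 FPKM with inosine plus hypoxanthine, against 23.4, 29.7 and 27.1 FPKM with inosine and 23.8, 23.7 and 24.7 FPKM with glucose. Its hypoxanthine libraries were the lowest, and the log2 difference was -0.47 and -0.33 (limma adjusted p = 0.00659 and 0.0308). Adk, adenosine kinase, passed against inosine at -0.44 (limma adjusted p = 0.0206) and not against glucose at -0.29 (limma adjusted p = 0.105).

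Xdh, which oxidizes hypoxanthine to xanthine and urate, rose. It had 15.7, 13.1 and 15.8 FPKM with inosine plus hypoxanthine, against 8.26, 7.87 and 7.95 FPKM with inosine and 7.49, 11.4 and 8.42 FPKM with glucose. Its hypoxanthine libraries were above all others, and the log2 difference was 0.81 ± 0.13 from inosine and 0.67 ± 0.13 from glucose (standard error; limma adjusted p = 0.00332 and 0.00856). The other gene called higher was Gmpr, which returns GMP to IMP, at 4, 5 and 7 reads with inosine plus hypoxanthine against 0, 0 and 2 reads with inosine and 0, 2 and 0 reads with glucose. These counts are close to the limit of detection.

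Of 11 nucleotide kinases, 4 fell relative to inosine (Ak1, Ak6, Nme1 and Nme6) and 3 relative to glucose (Ak1, Nme1 and Nme6). None rose, and 9.59% and 9.55% of all genes were called lower. Ak1 averages under 1 FPKM, at 51, 22 and 38 reads with inosine plus hypoxanthine. It had 94, 153 and 111 reads with inosine and 75, 149 and 204 reads with glucose. Among the 10 kinases averaging 1 FPKM or more, 4 and 2 were called lower when such genes alone were tested, where 18.7% and 19.7% were, so that the count against glucose is at the background. Nme1, a kinase that makes nucleoside triphosphates, had 166, 185 and 163 FPKM with inosine plus hypoxanthine. It had 225, 252 and 242 FPKM with inosine and 268, 217 and 235 FPKM with glucose. Nme1 was lowest in the hypoxanthine libraries, and the log2 difference was -0.49 and -0.48 (limma adjusted p = 0.00674 and 0.0072). Nme2, the most abundant of the 11, averaged 383 ± 41.0, 472 ± 16.9 and 452 ± 54.0 FPKM in the same media (SD, n = 3 each). It did not pass in either comparison (log2 difference -0.31 and -0.24, limma adjusted p = 0.0753 and 0.162). Of 6 genes of the pyrimidine route, Dhodh, Cmpk1 and Ctps fell in both comparisons and none rose, beside the same shares of all genes. Dhodh, the mitochondrial enzyme that makes orotate, differed by -0.58 and -0.67 (limma adjusted p = 0.00112 and 0.00055). Cad, which starts that route, did not pass (-0.25 and -0.41, limma adjusted p = 0.348 and 0.122). List medians were -0.31 and -0.23 for the kinases, -0.28 and -0.32 for the pyrimidine genes, -0.05 and -0.06 for salvage and 0.11 and -0.01 for PRPP supply, the comparison with inosine first. None of the genes in these lists or of the 2 regulators was called between inosine and glucose.

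**Figure D4:**
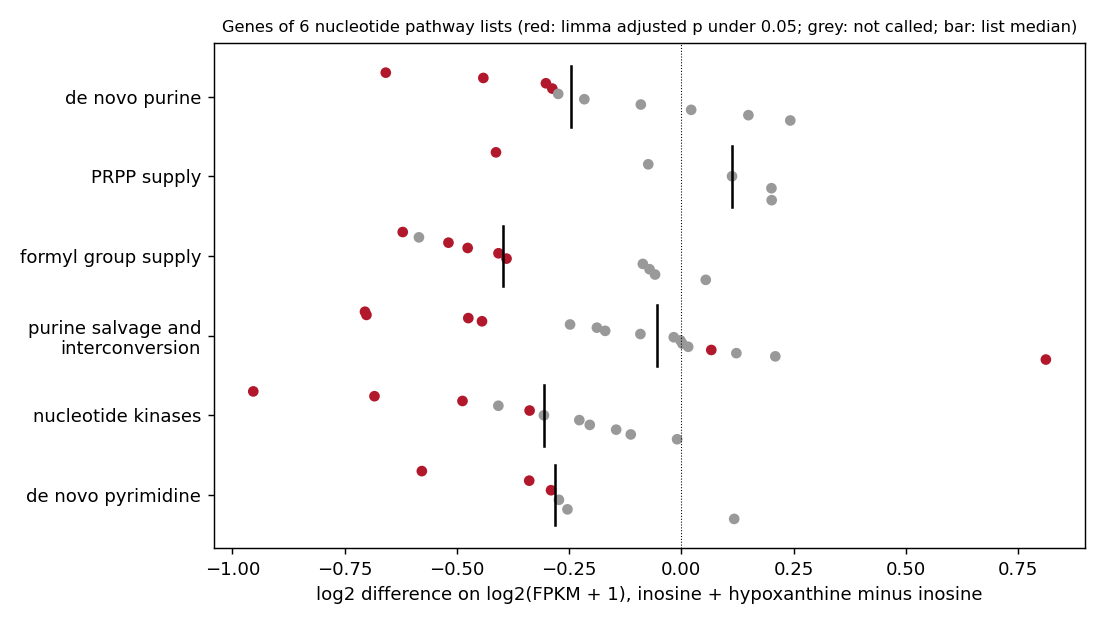
Log2 difference of inosine plus hypoxanthine minus inosine on log2(FPKM + 1) (x axis) for every gene of 6 nucleotide lists (y axis), red where limma's adjusted p was under 0.05, with a bar at the list median. The median is -0.25 for the de novo purine genes and -0.40 for formyl group supply, and the point farthest to the right is Xdh at 0.81.

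Myc and Atf4 are transcription factors known to act on nucleotide and one-carbon genes. Myc had 118, 88.5 and 108 FPKM with inosine plus hypoxanthine, against 69.5, 48.5 and 70.1 FPKM with inosine and 69.5, 71.8 and 64.7 FPKM with glucose. Its hypoxanthine libraries were the highest, and the log2 difference was 0.74 ± 0.15 and 0.60 ± 0.15 (standard error; limma adjusted p = 0.00956 and 0.0256). Atf4 had 115, 105 and 108 FPKM with inosine plus hypoxanthine, against 252, 175 and 225 FPKM with inosine and 260, 188 and 209 FPKM with glucose. Its hypoxanthine libraries were far below the rest, and the log2 difference was -0.97 ± 0.15 and -0.99 ± 0.15 (standard error; limma adjusted p = 0.00244 and 0.00234). Of the 3 members with CACGTG in the promoter window, Atic fell in both comparisons, while Paics and Impdh2 did not pass in either.

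The profile of the 10 enzymes over the 9 libraries, as the mean of log2(FPKM + 1) less each gene's mean, was -0.12 with inosine plus hypoxanthine, 0.06 with inosine and 0.06 with glucose. Likeness to it was measured as the root mean square difference over the 9 libraries, among 6937 other genes averaging 5 FPKM or more. The 5 genes most like it were Copg1 (0.0227), Akirin1 (0.0264), 2810004N23Rik (0.0291), Rab8a (0.0294) and Dnajc2 (0.0303). Copg1 averaged 33.5 ± 0.651 FPKM with inosine plus hypoxanthine, 38.5 ± 0.346 FPKM with inosine and 38.1 ± 1.35 FPKM with glucose (SD, n = 3 each). The members themselves lay farther from their own mean, from 0.0766 for Gart and 0.0796 for Adsl to 0.351 for Impdh1. The 5 genes were picked as the closest of 6937 and the members by name, so this contrast follows from the selection.

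In the authors' deposited table for inosine and inosine plus hypoxanthine, 5 members had an adjusted p under 0.05, all lower with hypoxanthine. They were Ppat, Gart, Adsl, Atic and Impdh1. Ppat is thus counted there and not in the limma fit used for the calls here. Of the 19 alternative analyses, 5 called it lower than inosine. In the authors' deposited table for glucose and inosine plus hypoxanthine, 6 members did, the same 5 lower and Adss higher. None did in the authors' deposited table for inosine and glucose. None of the 10 was marked significant in any of the authors' deposited tables, the members with an adjusted p under 0.05 included. The mark is therefore not the same as an adjusted p under 0.05. The share of all genes with an adjusted p under 0.05 there was not counted, so these counts have no background beside them.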

How the data were processed

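Libraries of 3 media, 3 each, were paired-end, per the labels' protocols. The submitters' processing notes name Subread 2.0.1, featureCounts, DESeq2 1.38.3 and HISAT2 and the mm10 build, without roles or strand. The authors deposited FPKM per gene and library. The deposited group mean signal of each medium behaves as a normalized read count averaged over 3 libraries. The deposited log2 fold changes and the deposited p-values are the authors' own, and their tables with hypoxanthine give the other medium over hypoxanthine.

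Differences were tested with limma 3.58.1 in R 4.3.3 (trend and robust) on log2(FPKM + 1), using all 9 libraries and the 20618 genes unfiltered, and 6 residual degrees of freedom. The pseudocount of 1 FPKM understates the change of low genes. Every adjusted p given is limma's, adjusted over all genes (Benjamini-Hochberg), and was called under 0.05. Whole reads were recovered for 20575 genes (99.79%, all 10 members) by solving each medium's 2 deposited means for whole numbers within 1e-05. For 459 sets of 3 libraries the limit was as wide as 0.01 and FPKM ratios within 0.1 on the log2 scale chose the solution. Recovered reads departed from FPKM by up to 0.08 for Paics, 0.06 for Gmps and 0.01 for the other 8 members (log2). They served for depth, low counts and limma voom. Copies were sought with blastn 2.17.0, and gene coordinates are GENCODE's on GRCm38. The fit was also run on simulated reads with the same spread setting for every gene and no replicate structure, simpler than these data. Its outcome is not reported here.

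Members and lists were chosen with earlier results of these data known. The 10 members, all list genes, the marker genes and the 5 genes most like the members' mean profile could be named. Another 19 analyses per comparison changed the pseudocount, filter, scaling, moderation, samples or replicate block, or used reads.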

Additional observations from a re-analysis of the deposited data

How the results depend on the processing

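Under the alternatives, 499 of the members' log2 differences kept direction and side of the threshold, 41 were no longer called, 12 became called and 18 changed sign, none of them a called difference. Of those between inosine and glucose, leaving out 1 library moved Pfas between -0.126 and 0.0403, Adsl between -0.0168 and 0.102, Atic between -0.0501 and 0.0159 and Impdh1 between -0.333 and 0.0717. Without both libraries of highest mitochondrial share, Adsl became -0.0168, Atic 0.0159 and Impdh1 0.0717. Under median-of-ratios scaling Atic became 0.00258, Paics against inosine -0.0144 and Impdh2 against glucose -0.0049, and Impdh2 became -0.0242 scaled to an equal sum. Leaving out 1 library moved Paics against inosine between -0.105 and 0.125 and Impdh2 against glucose between -0.0552 and 0.107. The cause was not tested.

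The count of members called, 4 against inosine and 5 against glucose, ran from 1 to 4 and from 2 to 5 when 1 library was left out, where fewer libraries were fitted. Against inosine, 2757 genes were called without hypoxanthine replicate 3 and 4382 in the full fit. Against glucose, 2677 were called without hypoxanthine replicate 3 and 4192 in the full fit. Between inosine and glucose 2 genes were called in the full fit and from 0 to 7 under the alternatives.

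Libraries with the same replicate number did not deviate together in every pair (correlations over 9947 genes from -0.27 to 0.64). Between inosine plus hypoxanthine and inosine, the correlations were 0.41, 0.64 and 0.02 for the same number. They ran from -0.55 to 0.39 for different numbers. The labels give no pairing, and these correlations, of deviations from means of 3 libraries, cannot decide whether the numbers pair the samples. A replicate block added to all 9 libraries gave 5 called members against inosine, 5 against glucose and 0 between inosine and glucose. Of all 20618 genes, it called 4396, 4251 and 1 in the same order. With the replicate block and only the 2 media compared, 5, 2 and 0 members were called, and over all genes 3924, 2110 and 0. The 5 against inosine were Gart, Atic, Impdh1 and Gmps lower (Gmps limma adjusted p = 0.0363) and Impdh2 higher (limma adjusted p = 0.0431), without Adsl (limma adjusted p = 0.0623). The 2 against glucose were Atic and Impdh1.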
